A study of Homo sapiens with 5 samples.

Results

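Of the 905 peaks called with the Odd probe pool in the SNHG5 pull-down, 545 were overlapped by no peak of the Even list, 60.2% of the Odd list, and the other 360 were. The 545 are called Odd-only peaks here, and the 360 overlapped Odd peaks. They were selected by position against all 8626 Even peaks whatever their rank, with a shared base pair enough to be left out, so their number is a description of the peak calls and not a result. RIA-seq was carried out in HCT-116, a human colorectal carcinoma cell line, after crosslinking in 1% glutaraldehyde. The Odd pool was sequenced from 2 libraries and the Even pool from 1, and 2 libraries labelled input, which the methods describe as a luciferase-specific pool, served as the common control of both. All 5 libraries came from the same cell line without any knockdown, and their labels give the Odd pool, the Even pool or input with a replicate number.

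SNHG5 is a long noncoding RNA whose introns carry small nucleolar RNAs and whose spliced transcript is found in the cytoplasm. In RIA-seq, crosslinked lysate is sonicated, and biotinylated oligonucleotides antisense to a bait RNA retrieve that RNA. The RNA that comes along is sequenced and mapped. Separate pools of oligonucleotides against the same bait are used because an RNA retrieved through the bait should appear with each pool, whereas an RNA bound by an oligonucleotide itself should appear with the pool that holds it.

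Each list held 1 value per peak for the whole pool, so that the values given here carry no error between replicates. The list headers give 150214135 tags for Odd and 55933565 for Even, of which 4904959 and 1965614 were left after the limit on duplicates, against 3986040 for the control. The Odd list had been cut to reproducible peaks and its smallest −log10 p was 26.7, whereas the Even list was not. The part that the smaller depth of the Even library had in the missing overlaps was not tested. Among the 360 overlapped Odd peaks, 241 met an Even peak that was not among the 905 best of its list by p, and the median −log10 p of the overlapping Even peak was 25.4.

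Exact matches to SNHG5 of at least 12 nt were looked for within 250 bp of each summit, on both strands. Of the 189 Odd-only peaks with such a match, 142 had one on 1 of 5 short stretches of the transcript and 47 had theirs elsewhere, against 119 and 14 overlapped Odd peaks and 40 and 96 of the best Even peaks that no Odd peak overlapped. The stretches were drawn from the matches of the Odd-only peaks, so the counts of that set on them follow in part from this choice. They are printed because the Odd-only and the overlapped Odd peaks differed in which of them they matched. They were defined as the positions covered by such a match in at least 10 Odd-only peaks, in the canonical spliced transcript of 1316 nt and 6 exons, and each lies within 1 exon of this noncoding gene on the minus strand of chromosome 6 in GRCh37 (hg19). Stretch 1 lies at positions 575 to 592 of the transcript, chr6:86387875-86387892, and stretch 2 at 693 to 704, chr6:86387199-86387210. Stretch 3 lies at positions 717 to 728, chr6:86387175-86387186, stretch 4 at 801 to 816, chr6:86386855-86386870, and stretch 5 at 1094 to 1105, chr6:86360420-86360431. Stretch 5 lies in an exon far from the others and is absent from an annotated transcript of 9 exons that holds the other 4, and the isoforms that the study describes were not modelled here. The stretches read, 5′ to 3′ in the sense of SNHG5 and whole in lower case:

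SNHG5 stretch 1: tcttcagtggcacagtgg
SNHG5 stretch 2: tgagggtcgctg
SNHG5 stretch 3: tagaggccagat
SNHG5 stretch 4: gctgataagaaaacca
SNHG5 stretch 5: ttttcttttttt

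Windows of 50 bases from 12 Odd-only peaks show what such a match looks like, with the capitals marking the bases that SNHG5 shares without a mismatch. The windows are unspliced genome sequence. Each is named by the region at the summit of its peak and may run beyond that region. They are the longest matches found on the chromosomes shown, the next longest in coding sequence, which are ARHGAP12, ABCB6 and VCAN, and that of COIL, the peak with the smallest p in coding sequence. The first 7 overlap stretch 1 and the next overlaps stretch 4, whereas the last 4 lie on none of the stretches. Those on stretch 1 outside exons are chr11:46709954-46710003 (minus strand) in an intron of ARHGAP1, chr12:19689350-19689399 (plus strand) between genes, chr4:78828267-78828316 (plus strand) in an intron of the mitochondrial ribosomal protein gene MRPL1, chr2:28541646-28541695 (plus strand) in an intron of BABAM2, a subunit of the BRCA1-A complex, and chr5:79426700-79426749 (minus strand) in an intron of SERINC5, a restriction factor of retroviruses. Those on stretch 1 in coding sequence are chr5:82835043-82835092 (plus strand) in VCAN, the proteoglycan versican, and chr17:55028064-55028113 (minus strand) in COIL, the Cajal body scaffold coilin. The window on stretch 4 is chr12:96057357-96057406 (minus strand) in the coding sequence of NTN4, a secreted netrin. The others in introns are chr22:29291054-29291103 (plus strand) in ZNRF3, a ubiquitin ligase that removes Wnt receptors, and chr13:100005999-100006048 (plus strand) in UBAC2. Those from peaks with a summit in coding sequence are chr10:32197462-32197511 (plus strand) in ARHGAP12 and chr2:220081584-220081633 (minus strand) in ABCB6, an ABC transporter. ARHGAP12 lies on the minus strand, so its match is antisense to the gene.

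ARHGAP1: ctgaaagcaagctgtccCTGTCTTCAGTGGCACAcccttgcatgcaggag
intergenic, chromosome 12: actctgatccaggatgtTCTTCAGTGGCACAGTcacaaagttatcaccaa
MRPL1: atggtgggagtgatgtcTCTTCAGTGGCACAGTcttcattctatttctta
BABAM2: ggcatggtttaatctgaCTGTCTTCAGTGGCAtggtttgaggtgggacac
SERINC5: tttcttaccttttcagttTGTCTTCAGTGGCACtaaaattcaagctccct
VCAN: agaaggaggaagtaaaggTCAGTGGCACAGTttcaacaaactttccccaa
COIL: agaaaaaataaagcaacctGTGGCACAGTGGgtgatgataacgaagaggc
NTN4: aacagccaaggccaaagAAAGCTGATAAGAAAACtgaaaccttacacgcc
ZNRF3: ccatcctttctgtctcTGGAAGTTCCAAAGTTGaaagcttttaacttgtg
UBAC2: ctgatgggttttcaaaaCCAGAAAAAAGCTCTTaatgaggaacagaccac
ARHGAP12: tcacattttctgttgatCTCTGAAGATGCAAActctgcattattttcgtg
ABCB6: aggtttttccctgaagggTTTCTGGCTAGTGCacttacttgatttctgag

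The Odd-only peaks lay mostly in mRNA exons. By the annotation at the summit, coding sequence held 199 of them, 3′ UTRs 88, 5′ UTRs 11 and exons of noncoding transcripts 21, which put 58.5% in an exon (319 of 545, 95% Wilson interval 54.4 to 62.6). Another 195 were in introns, 30 between genes and 1 on an alternative sequence without annotation. The intervals cover counting error only, and peaks of 1 gene are not independent.

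Exons took a larger share of the Odd-only than of the overlapped Odd peaks, of which 43.3% had their summit in one (156 of 360, interval 38.3 to 48.5). The share in coding sequence was 36.5% (interval 32.6 to 40.6) against 25% (20.8 to 29.7). In 3′ UTRs it was 16.1% (13.3 to 19.5) against 10.6% (7.79 to 14.2), so that these intervals met. The share in introns was lower in the Odd-only peaks, 35.8% (31.9 to 39.9) against 43.9% (38.9 to 49.1), with intervals that met as well. Within mRNA exons, however, both sets were divided in the same way. Of 298 Odd-only peaks in coding sequence or UTRs, coding sequence held 66.8%, 3′ UTRs 29.5% and 5′ UTRs 3.69%, and of 135 overlapped Odd peaks they held 66.7%, 28.1% and 5.19%. These region shares carry no p, since the lists give no spread between libraries.

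Along the transcript, the Odd-only peaks of mRNA exons were not gathered at an end. The median summit lay 39.9% of the way from the 5′ end, in transcripts with a median spliced length of 4893 nt. Inner exons held 170 of the 298 summits, 57.0% (interval 51.4 to 62.5), last exons 114 and first exons 14. In 158 of them, 53.0%, the exon was shorter than the peak, which therefore ran beyond the exon on the genome. For the overlapped Odd peaks the corresponding figures were 43.6% of the way, 56.3% in inner exons and 60% with an exon shorter than the peak.

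In width the Odd-only peaks were uniform, with a median of 517 bp, quartiles of 442 and 592 bp and a range of 261 to 1830 bp. The overlapped Odd peaks had a median of 574 bp and reached 4416 bp. Pileup, the number of extended tags over the summit, ranged from 20 to 947 in the Odd-only peaks with a median of 69, against a median of 83 in the overlapped ones. Fold enrichment, the pileup over the local control background, had a median of 15.9 and quartiles of 8.46 and 40.6, against a median of 34.9. Width, pileup and fold come from the calls that selected the peaks, and these differences are therefore given without a test.

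The same selection can be read by rank. Among the 181 Odd peaks with the smallest p, 69 were Odd-only, 38.1%, and in each further 181 down the list the share was 53.6%, 67.4%, 68.5% and 73.5%. Strong peaks were nevertheless among them. Of the 10 Odd peaks with the smallest p, 4 were Odd-only, and of the 10 with the largest fold enrichment, 7 were. Of the 50 with the smallest p, 18 were, and of the 50 with the largest fold, 20 were, against 60.2% of the whole Odd list.

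Region and signal went together in the Odd-only peaks. Those with a summit in an exon had a median pileup of 100 but a median fold of 10.7, and those in introns a median pileup of 46 and a median fold of 40.5. The control background at the summit had a median of 9.84 in exons and 1.23 in introns. Over the whole Odd list its smallest value and its lowest decile were both 0.472. This is a floor shared by many peaks, and folds over it depend on that floor. Intronic peaks thus had fewer tags over far fewer control tags. Among peaks in exons alone, the overlapped Odd peaks still had the higher medians, with a pileup of 124 and a fold of 15.3, and among peaks in introns 60.5 and 54.8. Base composition varied little, with a median GC content of 42.7% around the summits of Odd-only and 41.3% of overlapped Odd peaks.

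**Figure D1:**
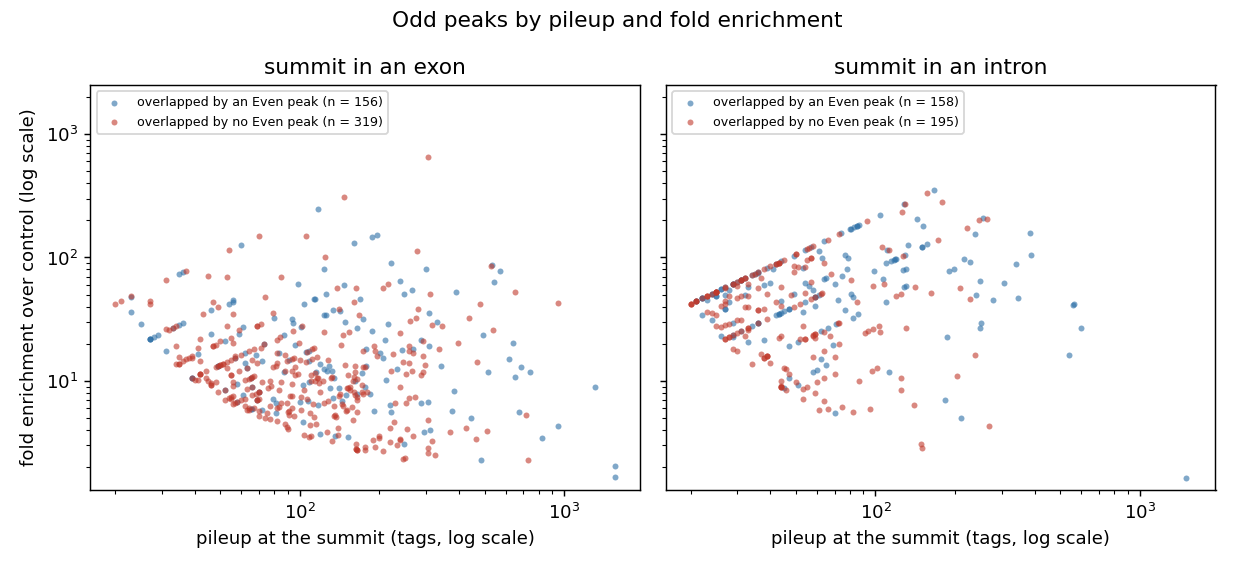
Each point is an Odd peak, plotted by pileup (tags at the summit, log axis) and fold enrichment over control (log axis), for summits in exons (left) and introns (right). Odd-only peaks are red and overlapped Odd peaks blue, and the intronic points sit at lower pileup and higher fold than the exonic ones (median pileup 46 and 100, median fold 40.5 and 10.7 for Odd-only peaks).

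The Odd-only peak with the smallest p in coding sequence lay in COIL, at chr17:55027575-55028415. Its pileup was 650 and its fold enrichment 52.8. Coilin has a processed pseudogene, COILP1, on chromosome 14, and this too held an Odd-only peak. Its pileup was 70 and its fold 148, over the background floor of 0.472. COILP1 was singled out with its values known. At each of both summits 7.71% of the surrounding 48-nt sequences had another copy in the reference, and the part of reads shared between gene and pseudogene was not tested.

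The next in p were in GLDN. GLDN encodes gliomedin, which organises sodium channels at nodes of Ranvier, and its mRNA held 5 Odd-only peaks, the most of any gene. The peak in exon 6 had a pileup of 306 over the floor of the control background, 0.472. Its fold of 648 was the largest of all 545 peaks and depends on that floor. The peak in exon 7 had the highest pileup of the gene, 528, with a fold of 85.8.

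Other mRNAs among the 10 smallest p had their peak in the 3′ UTR, with 1 exception. RYBP, a subunit of polycomb repressive complexes, had a pileup of 479 and a fold of 41.6 in this region. RBM23, an RNA-binding protein gene, had 437 and 32.3, and CDC5L, a spliceosome component, 278 and 113. CLN8, a membrane protein of the endoplasmic reticulum, had the highest pileup of all Odd-only peaks, 947, with a fold of 42.8, and 56.2% of its 48-nt sequences had further copies in the reference. The exception, AKAP11, which anchors protein kinase A, had its peak in coding sequence, with a pileup of 540 and a fold of 25.8. The remaining 2 of the 10 were in introns, in TBC1D19, which carries a Rab GTPase-activating domain, with a fold of 206, and in TIMMDC1, an assembly factor of respiratory complex I, with a fold of 200.

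Large folds outside exons came from low backgrounds. The intronic peak of SERINC5 had a pileup of 157 over the background floor of 0.472 and a fold of 332. The intronic peaks of CYRIB, SCAI and MRPL1 had folds of 280, 273 and 232 with pileups of 179, 129 and 126, that of SCAI over the floor as well. An intergenic peak on chromosome 16 had a fold of 348 with a pileup of 167. At the other end stood peaks over a high control background. SAT1, which acetylates spermidine and spermine, had a pileup of 729 with a fold of 2.29, the smallest of all Odd-only peaks, over a background of 318. CANX, the chaperone calnexin, had a pileup of 715 with a fold of 5.33 over 134. SAT1 was singled out for its high pileup with its values known, and CANX holds several peaks.

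In all, 346 Odd-only peaks overlapped an exon of 327 genes. Of these genes 286 were protein-coding, 1.42% of the 20149 annotated ones, and 23 were long noncoding RNA genes. A single peak was the rule, with 288 genes holding 1, 25 holding 2, 12 holding 3, EML4 holding 4 and GLDN 5. All 39 genes with several Odd-only peaks were protein-coding, and 25 of them had no Even peak in any exon. Counted by peak over all Odd-only peaks in exons, 108 of 346 were in a gene with an Even peak in an exon, 31.2%. The selection favours genes without Even peaks, so the count of 25 is not a trait of genes with several peaks.

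The peaks of 1 gene lay in neighbouring exons of the spliced mRNA. In 36 of the 39 genes the summits fell in at least 2 exons of 1 transcript, and in 31 of these the exons followed each other without a gap. On the genome these summits were a median of 2984 bp apart from first to last, with a range of 586 to 34524 bp. After splicing the median span was 123 nt, with a range of 47 to 541 nt. In 33 of the 36 genes it was within 260 nt, the fragment length to which MACS extended the tags. Pairs of overlapping genes that share peaks, such as CNOT1 with SETD6 and AK1 with ENSG00000257524, were counted for each gene.

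The pattern was not particular to the Odd-only peaks. Of 13 genes with overlapped Odd peaks in at least 2 exons, 10 had them in exons without a gap and 8 within 260 nt. Of 57 genes with several of the best Even peaks that no Odd peak overlapped, 44 and 49 did. In most of these genes, the peaks counted separately thus lay within 260 nt of mRNA. This length was used for every set, although the fragment length of the Even calls was 290 nt.

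GLDN had the widest spread in the mRNA and was an exception both to the fragment length and to exons without a gap. Its summits in exons 4, 5, 6, 7 and 9 of 10 spanned 17755 bp of chromosome 15 and 541 nt of the mRNA. The pileups were 54, 147, 306, 528 and 105 in this order, and were thus highest in exon 7. A sixth Odd peak of GLDN, with a pileup of 59, was overlapped by an Even peak with a pileup of 24. The Even list is scaled separately, so these pileups are not compared.

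EML4, which encodes a microtubule-associated protein, had summits in exons 17, 18, 19 and 20 of 23, with pileups of 85, 132, 64 and 53 and folds of 9.87, 10.7, 17.3 and 14.4. They spanned 20972 bp on the genome and 244 nt in the mRNA. CANX had pileups of 206, 715 and 512 in exons 6, 7 and 8, within 261 nt. HERC2, a large ubiquitin ligase, had pileups of 165, 259 and 190 in exons 70, 71 and 72 of 93, within 167 nt. In EML4, CANX and HERC2 the pileup was highest in an inner or middle exon of the group. In other genes with 3 peaks, PEBP1, MAP7, STX7 and ITPKB, it was highest in an exon at an end of the group.

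Of the other genes with 3 peaks, those with the largest summed pileups were of varied function. PEBP1, the Raf kinase inhibitor protein, had pileups of 172, 266 and 268 in exons 2, 3 and 4, within 177 nt. NUP188, a nucleoporin, had 177, 291 and 229 in exons 19, 20 and 21, and CNOT1, the scaffold of the CCR4-NOT deadenylase, had 199, 259 and 158 in exons 46, 47 and 48. MAP7, which binds microtubules, had 66, 143 and 207 in exons 13, 15 and 16. PREP, a prolyl endopeptidase, had 102, 160 and 153 in exons 3, 4 and 5, with a largest fold of 43.3. AK1, an adenylate kinase, had 292 and 56 in exons 4 and 5, and its other peak had its summit in an intron. STX7, ANKRA2 and ITPKB, with summed pileups of 306, 149 and 122, held 3 peaks as well. None of the genes named here except CANX, MAP7, PREP and GLDN had an Even peak in an exon, and those had 1 each.

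**Figure D2:**
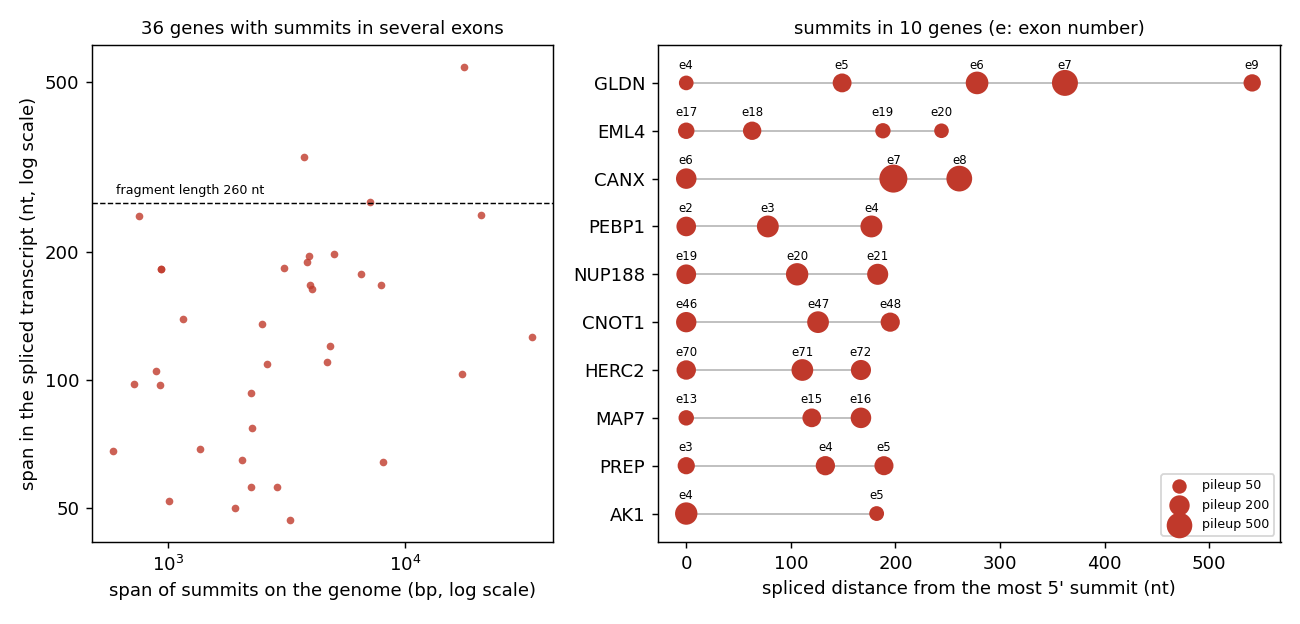
Left, each point is 1 of 36 genes with Odd-only summits in several exons, plotted by the span of its summits on the genome (bp, log axis) and in the spliced transcript (nt, log axis), with the fragment length of 260 nt dashed, and 33 genes lie below that line. Right, the summits of 10 genes along the spliced transcript in nt from the most 5′ summit, with exon numbers and with point area growing with the square root of pileup, where GLDN spans 541 nt and the others at most 261 nt.

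Over all Odd peaks 60.2% were Odd-only, whereas the transcripts that the study followed held 1 such peak. The study called interactions from peaks found with both pools. It ranked its short list by peaks per transcript, shared or not, and by local enrichment. That choice favours transcripts with shared peaks, so the count is given as a description. SPATS2 had 13 Odd peaks in exons and PITRM1 4, and all were overlapped by an Even peak. The same held for ZNF335, with 2, and for IRX4, CPNE1, SOCS6, DELE1, WASHC3, PECR and COX15, with 1 each. GLE1, a factor of mRNA export, was the exception, with an Odd-only peak in exon 1 that had a pileup of 167 and a fold of 33.9 beside its overlapped peak. SNHG5 itself was hit by 6 Odd peaks, of which 0 were Odd-only. GAPDH and STAU1 had no Odd peak in an exon.

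Gene lists chosen for the study's questions held few genes with an Odd-only peak. The share ranged from none to 7.02% by list, against 1.42% of protein-coding genes in general. No expression values were used, so these shares take no account of which genes HCT-116 expresses. In the cell cycle list 4 of 57 genes held one, 7.02% (interval 2.76 to 16.7). They were BUB3, a spindle checkpoint protein, with a fold of 17.5, CCNA2, cyclin A2, with 7.18, CDK4, the kinase of D-type cyclins, with 2.74, and ATM, the DNA damage kinase, with 42.3. The ATM peak had a pileup of 20, and the CDK4 peak a pileup of 165.

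The other lists held 1 to 4 such genes or none. Among 508 zinc finger genes with a ZNF symbol, 4 did, 0.787% (interval 0.307 to 2.01), which were ZNF445, ZNF451, ZNF777 and ZNF655. ZNF445, a regulator of genomic imprinting, had the largest of their folds, 50.6, in its 3′ UTR. BID, which links death receptors to mitochondria, was the one of 40 apoptosis genes, with a fold of 7.20. TYK2, a Janus kinase, was the one of 27 genes of the STAT3 pathway, with a fold of 14.7. KMT2C, a histone methyltransferase, and ATM were those of 37 colorectal cancer drivers. CSNK1A1, a kinase of β-catenin, with a fold of 11.2, and LRP5, a Wnt co-receptor, with 2.92, were those of 63 Wnt pathway genes. CASC3, a subunit of the exon junction complex, was the one of 26 genes of Staufen and nonsense-mediated decay, with a fold of 10.6, a summit in an intron and 6 Even peaks elsewhere in its exons. None of 86 ribosomal protein genes (interval 0 to 4.28%), 76 histone genes (0 to 4.81%) and 32 snoRNA host genes (0 to 10.7%) did.

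The Odd-only peaks were chosen for sharing no base with an Even peak. Their distance to the nearest one is therefore a description, given without a reference distance. The gap to the nearest one had a median of 46376 bp and quartiles of 15917 and 121968 bp. It was at most 1000 bp for 13 of the 545 peaks, 2.39% (interval 1.40 to 4.04), at most 10000 bp for 101, 18.5%, and at most 100000 bp for 384, 70.5%. Of 346 Odd-only peaks in exons, 108 were in a gene with an Even peak in some exon, 31.2% (interval 26.6 to 36.3). With only the 905 best Even peaks counted for the gene, that share was 5.78%.

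At the edge of the rule stood few peaks. Just inside, VEZF1 had a gap of 170 bp, GTPBP1 of 171 bp, TEAD1 and ISG20L2 of 208 bp and TLE6 of 741 bp. Just outside, TCAF1 shared 55 bp with an Even peak, MYSM1, HSPA5P1, PHF20L1 and AHCYL2 up to 259 bp. The Even peaks that decided these 10 cases had a −log10 p of between 5.82 and 24.9.

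Matches to the bait were then counted in the 543 Odd-only peaks with a readable window. An exact match of at least 12 nt to the spliced SNHG5 transcript was present in 189, 34.8% (interval 30.9 to 38.9). In all Odd peaks outside SNHG5 the share was 36.4%, so the Odd-only peaks as a whole did not stand out from the list they came from. The share was 39.0% (34 to 44.3) in 341 overlapped Odd peaks and 18.3% (15.7 to 21.3) in 742 of the best Even peaks that no Odd peak overlapped. The share depends on the length required and was 89.0% at 10 nt and 9.58% at 14 nt. The longest match of an Odd-only peak was 18 nt, in an intron of ZFPM2-AS1, followed by 17 nt in NTN4, ZNRF3 and ARHGAP1, and introns of UBAC2, BABAM2 and SERINC5 held matches of 15 or 16 nt.

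Odd-only and overlapped Odd peaks differed in the place of the match in SNHG5. Stretch 1, printed above, was matched in 66 of 543, 12.2% (interval 9.67 to 15.2), against 0.880% (0.300 to 2.55) of the overlapped Odd peaks and 0.674% (0.288 to 1.57) of the Even peaks. Stretch 3 was matched in 3.87% (2.54 to 5.84) of the Odd-only peaks against 31.4% (26.7 to 36.5) of the overlapped ones and 0.270% of the Even peaks. Stretch 4 was matched in 4.97% (3.44 to 7.14), 0.587% (0.161 to 2.11) and 1.89% (1.13 to 3.14). The intervals of Odd-only and overlapped Odd peaks lay apart at stretches 1, 3 and 4. At stretch 2, with 2.95% and 2.35%, and at stretch 5, with 3.31% and 1.17%, they overlapped. The stretches were drawn from the matches of the Odd-only peaks, so the counts describe them, and no test was made.

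**Figure D3:**
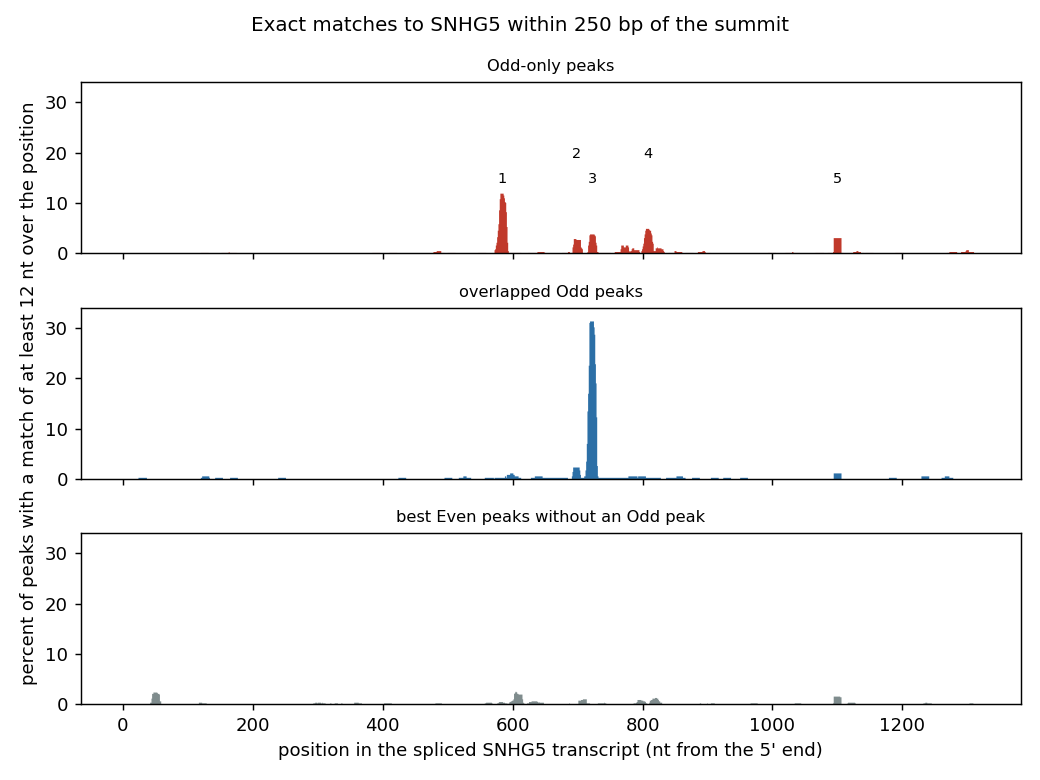
Each panel plots, for every position of the spliced SNHG5 transcript in nt from the 5′ end, the percent of peaks with an exact match of at least 12 nt over it, for 543 Odd-only, 341 overlapped Odd and 742 best Even peaks without an Odd peak. Numbers mark the 5 stretches, and the tallest signal is at stretch 1 for Odd-only peaks and at stretch 3 for overlapped Odd peaks.

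The matches lay close to the summits. The middle of the longest match was a median of 40.5 bp from the summit in the 189 Odd-only peaks, and within 50 bp in 57.7% of them (interval 50.5 to 64.5). In the overlapped Odd peaks it was 37 bp and 59.4%, and in the Even peaks 71.5 bp and 35.3% (27.8 to 43.6). By stretch, the median distance in Odd-only peaks was 31 bp at stretch 1, 19 bp at stretch 2, 30.5 bp at stretch 3 and 38 bp at stretch 4. At stretch 5, which holds little but T, it was 146 bp.

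In peaks with their summit in an exon, the matches were mostly on the strand of the gene. Of 71 Odd-only peaks in exons of a gene on 1 strand, 53 had the longest match on the strand of the gene, 74.6% (interval 63.4 to 83.3). The share was alike in the sets compared, with 15 of 20 overlapped Odd peaks, 75%, and 43 of 63 Even peaks, 68.3% (56.0 to 78.4). On that strand, a match inside the exon is held by both the mRNA and SNHG5. An oligonucleotide antisense to one is antisense to the other there. Whether an oligonucleotide bound any of these RNAs itself was not tested. The windows were unspliced genome sequence, and how many matches lie beyond the exon was not tested. At stretch 1 the match was in the sense of the mRNA in 21 of 21 such Odd-only peaks and at stretch 4 in 7 of 8, whereas at stretch 5 it was in 2 of 7. The peaks in COIL, RYBP, RBM23 and PEBP1 had their longest match, of 12 or 13 nt, at stretch 1 in the sense of the mRNA, and those in CANX and NTN4, of 13 and 17 nt, at stretch 4. The sequences of the probes were not used here, and whether a stretch lies under a probe of either pool was not tested.

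Matches were more frequent outside exons. They were found in 19.6% (interval 14.7 to 25.7) of the Odd-only peaks in coding sequence and in 28.4% (20 to 38.6) of those in 3′ UTRs, against 50.5% (43.5 to 57.5) in introns and 60% (42.3 to 75.4) between genes. The overlapped Odd peaks were ordered alike, with 12.2%, 18.4%, 59.2% and 60.6%. Among genes with Odd-only peaks in several exons, 17 of 36 had a match in at least 1 of them, 47.2% (32.0 to 63.0), against 50 of 225 genes with 1 peak, 22.2% (17.3 to 28.1). The former have more windows in which a match can occur. In 15 of the 17 a single peak of the gene held it. In HERC2 this was the peak in exon 70, with 13 nt. In EML4 the peaks in exons 17 and 18 both held one, of 13 and 12 nt.

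Sequence copied elsewhere touched few Odd-only peaks. At least 50% of the 48-nt sequences within the window had another copy in the reference for 25 of 543 Odd-only peaks, 4.60% (interval 3.14 to 6.71), and for 6.45% (4.30 to 9.57) of the overlapped Odd peaks. In 403, 74.2%, no such sequence did. The 25 included several members of the same families, whose peaks cannot be told apart from reads of a near-identical copy. NOMO1, NOMO2 and NOMO3, which encode near-identical membrane proteins, held 4 of them with folds of 3.02 to 3.59, and FAM86B1, FAM86B2 and FAM86FP held 3. SHLD2, of the shieldin complex, and SHLD2P1 had folds of 17.2 and 15.1. The NOMO, FAM86 and SHLD2 genes were singled out with their values known.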

How the data were processed

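Reads had been trimmed by the authors (cutadapt) and aligned by them to hg19 (STAR), and MACS 2.0.9 had called peaks over the pooled control with a p limit of 0.001. Both Odd libraries were pooled and their peaks post-processed with IDR, which could not be applied to the single Even library. The deposited pileup is a coverage signal of extended tags, scaled within each call, and was compared only within the Odd list. The deposited fold enrichment is the ratio of pileup to a local control background with a floor, from which that background was calculated here. The deposited −log10 p-value is that of MACS and ranked the peaks. Peaks in introns, which the authors set aside, were kept.

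Peaks sharing 1 bp or more were paired with bedtools 2.31.1. Summits were annotated with GENCODE version 44 mapped to GRCh37, in the order coding sequence, UTR, noncoding exon, intron. Sequences came from that genome through pysam 0.24.0. Statistics used scipy 1.17.1, numpy 2.4.6 and pandas 2.3.3 under Python 3.11.15, and figures matplotlib 3.10.9. Intervals are 95% Wilson intervals. Overlap, match and copy counts were tested on simulated data. For matches and copies 2 Odd-only peaks were left out, on an alternative sequence or masked sequence. The lists held 0 columns of other samples.

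The genes named are those the study followed, the 10 peaks with the smallest p and the 10 with the largest fold, the genes with most peaks, up to 4 genes per list, the 5 peaks on either side of the rule and the 8 with the longest match. The peaks described, the gene lists and this rule were chosen with earlier results of these data known.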

Additional observations from a re-analysis of the deposited data

How the results depend on the processing

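No paired analysis was possible because each pool has 1 list of pooled values. Of 57 alternatives over 16 results, 40 moved a value by less than its interval, or a count by less than 1.5 times, and 17 moved it further. The number of Odd-only peaks stayed within 1.5 times, from 412 with the best 80% of the Odd list to 786 against the 905 best Even peaks. With regions assigned by any overlap of the peak, coding sequence rose to 45.7%, and 3′ UTRs came to 12.7%, 5′ UTRs to 0.917% and introns to 31.2%. With all annotated transcripts, noncoding exons came to 6.24% and intergenic peaks to 3.85%. With the best 80% of the Odd list by p, the median width was 528.5 bp, the median pileup 88 and the median fold 18.4, as the weakest peaks are then left out. Against the 905 best Even peaks the median fold was 20.7 and 59 genes held several Odd-only peaks. With the Odd-only peaks unchanged and only those Even peaks counted for the gene, 5.78% of exonic peaks were in a gene with an Even peak. A match to SNHG5 was found in 89.0% of Odd-only peaks at 10 nt, 9.58% at 14 nt and 27.8% within 100 bp of the summit. It was found in 84.2% with all 89 annotated SNHG5 transcripts and 45.9% with another transcript of 9 exons in place of the canonical one. The alternatives on that transcript, on the gene with an Even peak, on copied sequence and on matches against the best Even peaks were chosen after seeing the data. The Even list comes from 1 library of smaller depth, whose part in these values was not tested, and the lists carry no error between libraries. Leaving out a library was not possible.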
